A study of Mus musculus with 10 samples.

Results

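Dlx2 ChIP-seq of mouse embryonic day 16 (E16) olfactory bulb gave 305 regions that overlapped no Dlx2 region of any other tissue or age in the series. They are called bulb-alone regions here. The 5 deposited lists of Dlx2 regions, on chromosomes 1 to 19 and X, were pooled and joined wherever regions overlapped by at least 1 bp, which left 18606 merged regions, and the 305 were chosen by the coordinates of the authors' calls, as those built from the E16 bulb list and no other. They made up 18.3% of the 1665 E16 bulb regions (exact Clopper-Pearson 95% interval 16.5 to 20.3) and 1.64% of all merged regions. The lists come from E16 olfactory bulb, E16 basal ganglia, E16 cortex, postnatal day 3 (P3) olfactory bulb and P3 cortex, all immunoprecipitated from formaldehyde-fixed tissue with an antibody to Dlx2. The labels give no strain, genotype, sex or number of animals. Each group has 1 library, so tissues and ages are compared without a test. The E16 bulb and P3 cortex lists share a pattern of peak names and a lane number that the other 3 lack, and such a batch and the group cannot be told apart. The other 5 of the 10 samples are input libraries and were not analysed here.

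Dlx2 is a homeodomain transcription factor that, together with its close relative Dlx1, drives the formation of forebrain GABAergic neurons. Interneurons of the olfactory bulb arise from Dlx-expressing progenitors of the ganglionic eminences and migrate forward into the bulb, where granule and periglomerular cells continue to be added after birth. Homeodomain proteins of this class bind DNA around an AT-rich core. In dissected tissue, binding in few cells and weak binding in many cells cannot be told apart.

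At annotated gene starts, no bulb-alone region had its summit in a window with TAATTA, a sequence that many homeodomain proteins recognise. The windows were too few to tell this from the share over all windows. RefSeq sequence of the GRCm38.p6 build gave promoter windows of 300 bases (250 before and 50 after an annotated start), and 22 windows at 18 bulb-alone regions held the summit. TAATTA was in 0 of these 22 windows, which allows a share of up to 13.6%. It was in 6 of the 36 windows that held the summit of another E16 bulb region (16.7%, 6.37 to 32.8) and in 5.29% of all 32851 windows. The share over all windows is below 13.6%, so 0 of 22 cannot be told from it. Strength differed between the sets, with −log10 q of at most 13.6 at the bulb-alone regions in windows. Of the other bulb windows, 28 were at or below that value and 1 of them held TAATTA (3.57%, 0.0904 to 18.3), so that no difference was detectable at like strength, while 5 of the 8 above it did. This split was chosen after seeing the data. The 200 bases before the start are given below for the 5 strongest bulb-alone regions with the summit in a window. The 2 strongest other E16 bulb regions with TAATTA in that stretch follow as examples of the sequence. They were picked for holding it and had −log10 q of 63.7 and 44.5, so they are no comparison at like strength. Capitals mark TAATTA or TAATTG, the CCAAT box and the GC-box core GGGCGG on either strand, so that ATTGG is CCAAT read from the other strand.
Mrps31 (bulb-alone, chr8:22411140-22411339, plus strand): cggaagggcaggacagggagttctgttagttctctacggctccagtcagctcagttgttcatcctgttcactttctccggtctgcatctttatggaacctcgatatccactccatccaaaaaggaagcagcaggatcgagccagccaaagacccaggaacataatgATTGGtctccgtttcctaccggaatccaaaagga
A730036I17Rik (bulb-alone, chr2:129218769-129218968, plus strand): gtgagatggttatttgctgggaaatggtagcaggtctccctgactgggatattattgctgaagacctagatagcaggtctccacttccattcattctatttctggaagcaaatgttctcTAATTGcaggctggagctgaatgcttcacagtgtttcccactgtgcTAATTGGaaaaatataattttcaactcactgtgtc
Dnajb11 (bulb-alone, chr16:22857645-22857844, plus strand): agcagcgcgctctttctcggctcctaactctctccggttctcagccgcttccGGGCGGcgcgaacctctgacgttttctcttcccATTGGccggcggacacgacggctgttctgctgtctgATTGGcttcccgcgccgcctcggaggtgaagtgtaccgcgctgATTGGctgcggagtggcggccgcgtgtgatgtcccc
Klhdc4 (bulb-alone, chr8:121829570-121829769, minus strand): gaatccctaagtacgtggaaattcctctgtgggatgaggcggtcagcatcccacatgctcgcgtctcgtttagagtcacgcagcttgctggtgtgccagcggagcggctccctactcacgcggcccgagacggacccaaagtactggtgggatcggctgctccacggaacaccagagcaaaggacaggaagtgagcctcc
Polr2i (bulb-alone, chr7:30231874-30232073, plus strand): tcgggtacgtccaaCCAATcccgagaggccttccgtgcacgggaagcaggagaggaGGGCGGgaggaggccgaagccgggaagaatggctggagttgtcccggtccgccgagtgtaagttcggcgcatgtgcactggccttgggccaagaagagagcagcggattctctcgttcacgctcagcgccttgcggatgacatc
Dlx6os1 (listed in all 5 lists, chr6:6869534-6869733, minus strand): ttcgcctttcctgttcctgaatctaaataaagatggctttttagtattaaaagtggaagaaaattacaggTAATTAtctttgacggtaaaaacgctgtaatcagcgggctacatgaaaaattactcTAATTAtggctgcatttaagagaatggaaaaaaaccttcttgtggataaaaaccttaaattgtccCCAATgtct
Vldlr (listed in every list but E16 cortex, chr19:27216284-27216483, plus strand): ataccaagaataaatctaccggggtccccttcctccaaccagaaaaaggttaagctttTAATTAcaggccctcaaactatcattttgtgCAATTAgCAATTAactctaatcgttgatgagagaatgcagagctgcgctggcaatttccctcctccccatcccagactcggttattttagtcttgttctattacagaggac
The stretch before the Dlx6os1 start holds TAATTA at 2 places and that before the Vldlr start at 1, beside TAATTG at 2. Dlx6os1 is a noncoding transcript of the Dlx5 and Dlx6 locus, and Vldlr encodes a reelin receptor. Among the 5 bulb-alone stretches, that of A730036I17Rik holds TAATTG at 2 places, one of which overlaps a CCAAT match, and that of Dnajb11 holds CCAAT at 3.

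Counted by window, GC-box letters were more frequent at bulb-alone regions than at other bulb regions, with intervals that overlap. The GC-box core was in 17 of 22 windows (77.3%, 54.6 to 92.2), against 15 of 36 windows of other bulb regions (41.7%, 25.5 to 59.2) and 35.7% of all windows. CCAAT was in 59.1% (36.4 to 79.3), against 72.2% (54.8 to 85.8), with 37.4% over all windows. TAATTG, equal to CAATTA on the other strand, was in 3 of 22 windows (13.6%, 2.91 to 34.9), against 19.4% (8.19 to 36.02) for other bulb regions and 8.0% of all windows. TGACAG, a TALE-class core, was in 18.2% of windows at bulb-alone regions, against 16.7% at other bulb regions, and the E-box CAGCTG in 9.09%, against 25%. CTTTGT, a Sox-type core, was in 22.7%, against 27.8%. Over all windows these letters were in 19.2%, 16.3% and 18.7%. Median GC content was 59.8% and median CpG count 21 per window, against 55.2% and 17 for other bulb regions and 52.7% and 7 for all windows. Some of the 22 windows share bases, because starts of opposite strands or of the same gene lie side by side. The 22 windows lie at 18 regions and the 36 at 35. In both sets, every region with several windows had the GC-box core in all of them. Counted by region, its share would therefore be lower in both sets. The intervals treat each window as independent and so understate the counting error, more so for the bulb-alone regions. The windows are too few for these intervals to be narrow, and no sequence was at hand for the regions away from starts.

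Read depth at single regions could be read back from the authors' values. MACS2 writes fold enrichment as the pileup of fragments at the summit plus 1 over the expected local background plus 1, and a Poisson p-value for that pileup. In the E16 bulb list, 1 whole-number pileup and 1 background solved both values for all 1665 regions, with a largest error of 0.000162 on the −log10 p scale. The commonest background was 3.89 expected fragments in the E16 bulb, against 4.12 in the E16 basal ganglia, 3.14 in the P3 bulb and 4.54 in the P3 cortex. The E16 cortex list could not be solved this way for most of its regions (136 of 6307 solved).

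The bulb-alone regions were on the weak side of their list. Their median pileup was 25 fragments (quartiles 22 and 28, range 17 to 44), against 30 (26 and 39, range 16 to 362) for the 1360 other E16 bulb regions. Their median fold enrichment, a ratio written by the authors' peak caller, was 4.70 (range 2.47 to 9.20), against 5.41 (1.30 to 20.5). The median −log10 q was 7.08, against 10.9. Median width was 354 bp (300 to 720), against 433 bp (300 to 2692). These values come from the list that defines the regions and are a description without a test. An exact 95% Poisson interval for a pileup of 44 is 32.0 to 59.1, and for 22 it is 13.8 to 33.3, counting error only, so that neighbours in this ranking cannot be ordered. The 305 regions held only 111 distinct pairs of fold enrichment and −log10 q, and 20 regions shared the pair of 4.70 and 6.49, which is a pileup of 22.

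**Figure D1:**
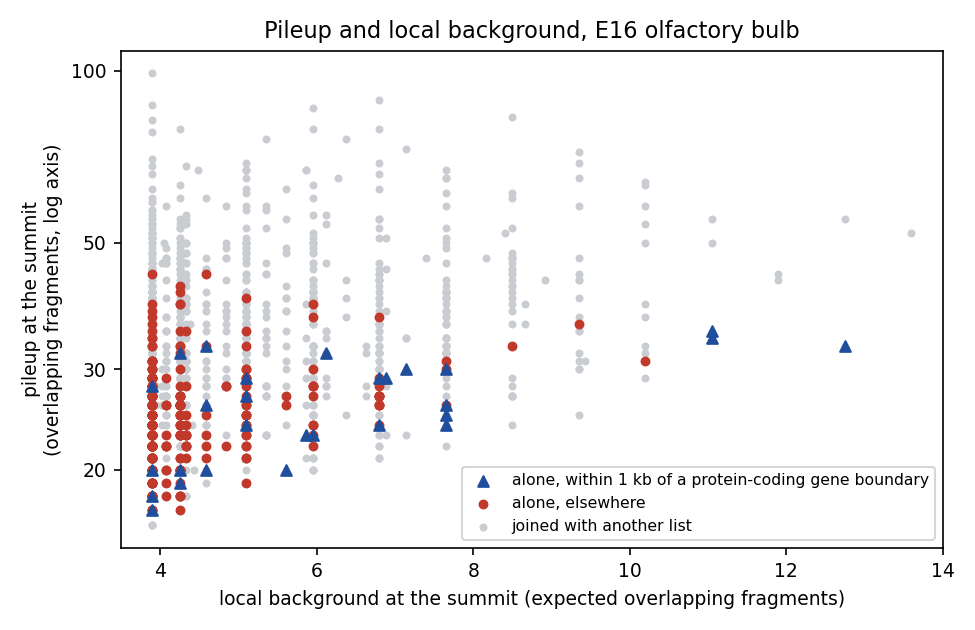
Pileup at the summit (log axis, overlapping fragments) against expected local background for E16 bulb regions. Blue triangles are bulb-alone regions within 1 kb of a protein-coding gene boundary, red circles are the other bulb-alone regions, and grey points are regions joined with another list, 6 of which lie beyond the axes; bulb-alone pileups run from 17 to 44.

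Their share fell with strength through the list. When the 1665 regions were cut into 5 equal parts by −log10 q, the strongest part held 11 bulb-alone regions of 333 (3.30%), the next 36, then 66 and 88, and the weakest part 104 (31.2%). The first bulb-alone region ranked 140, behind 139 regions that were joined with another list. There were 0 among the 100 strongest, 3 among the 200 strongest and 22 among the 500 strongest. Of the 305, 150 had the commonest background, with fold enrichment of 3.68 to 9.20. The lowest fold listed at the commonest background was 3.48 in the E16 bulb itself, 2.93 in the basal ganglia and 3.07 in the P3 cortex. All 150 therefore had to be above the lowest values of the basal ganglia and P3 cortex. In the P3 bulb the lowest was 3.87, and 146 were at or above it. A fold in the E16 bulb does not give the fold at the same place in another library. A region missing from another list was below the authors' threshold there and is not shown to be unbound.

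**Figure D2:**
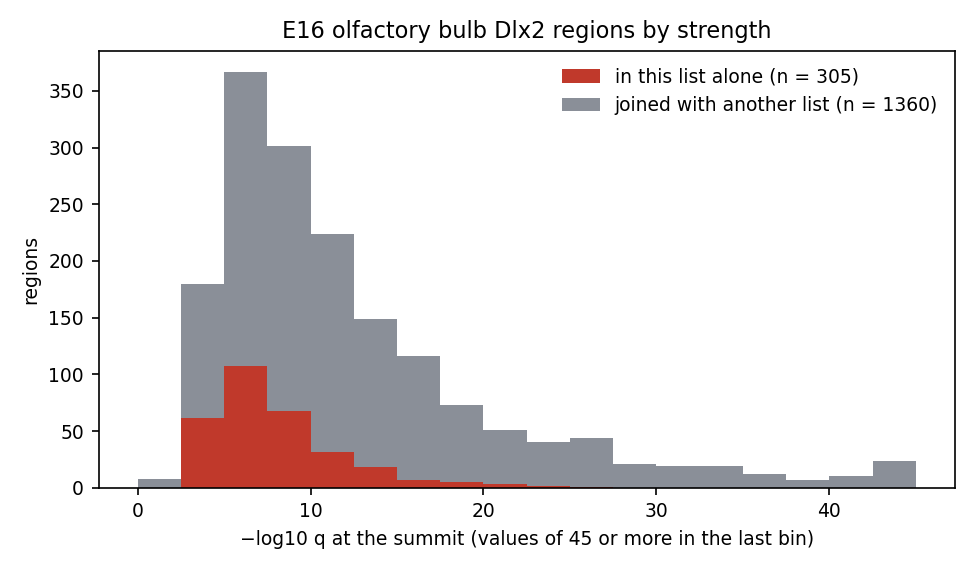
Number of E16 bulb regions (vertical axis) by −log10 q at the summit (horizontal axis), with bulb-alone regions in red under the regions joined with another list in grey. The red part is small on the right, where 11 of the 333 strongest regions are bulb-alone, and larger on the left, with 104 of the 333 weakest.

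Which of the other lists took regions away differed greatly. The 1360 joined regions included 616 joined with the E16 basal ganglia alone, 73 with the P3 bulb alone, 33 with the P3 cortex alone and 0 with the E16 cortex alone. Without the basal ganglia list the bulb-alone count was 927, without the P3 bulb list 378, without the P3 cortex list 339 and without the E16 cortex list 305. The count therefore rests on the basal ganglia library more than on the other 3. Regions found in the bulb at both ages and nowhere else had a median fold enrichment of 5.52 at E16, and those joined with the E16 basal ganglia alone 4.97, against 4.70 for the bulb-alone regions.

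The strongest bulb-alone region, with fold enrichment of 9.20 and a pileup of 44 over a background of 3.89, covered chr4:125313159-125313669. It lay 177 kb outside Grik3, a kainate receptor subunit gene, with its summit 0.191 kb inside the start of the noncoding gene Gm32696, and 5.61 kb from a basal ganglia region. The next lay 145 kb outside Pfn2, which encodes an actin-binding profilin (8.05), and within Rbms1, an RNA-binding protein gene (8.19), and Fars2, a mitochondrial aminoacyl-tRNA synthetase gene (8.0). Rbms1 is 214 kb long and Fars2 420 kb.

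Several of the 20 strongest lay far outside protein-coding genes. These were 153 kb from Otx2, a homeodomain factor of the anterior brain (7.57), 489 kb from Zeb2, a zinc finger homeobox factor of migrating interneurons (6.72), 56.2 kb from the retinoid receptor gene Rxra (7.77) and 441 kb from Brinp1, a neural gene induced by retinoic acid (7.62). Further such regions lay 100 kb from Csl (7.62), 242 kb from Gm20594 (8.18), 312 kb from Gm11232 (7.98) and 20.3 kb from Naf1 (6.75). The nearest gene is named as a landmark, and whether any region acts on it was not measured.

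The rest of the 20 strongest were inside gene bodies. Neuronal genes among them were Foxp2, a forkhead factor of striatal and other projection neurons (6.95), the glutamate delta receptor gene Grid1 (5.76), the calcium channel subunit gene Cacna2d3 (6.48), the calcium-binding protein gene Caln1 (7.16) and the lipoprotein receptor family gene Lrp1b (6.86). The cell cycle regulator gene Rb1 had 6.95, Arhgap22 7.16 and Frmd7 7.36. The Foxp2 region covered chr6:15323149-15323524, with a pileup of 33 (22.7 to 46.3) over 3.89, and lay 45.7 kb from the nearest region of any other list. In its body or within 10 kb, Foxp2 also held 13 E16 basal ganglia regions, 1 E16 cortex region and 3 other E16 bulb regions. Across the 20, pileups ran from 33 to 44 and backgrounds from 3.89 to 5.95, and the pileup intervals overlapped each other.

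**Figure D3:**
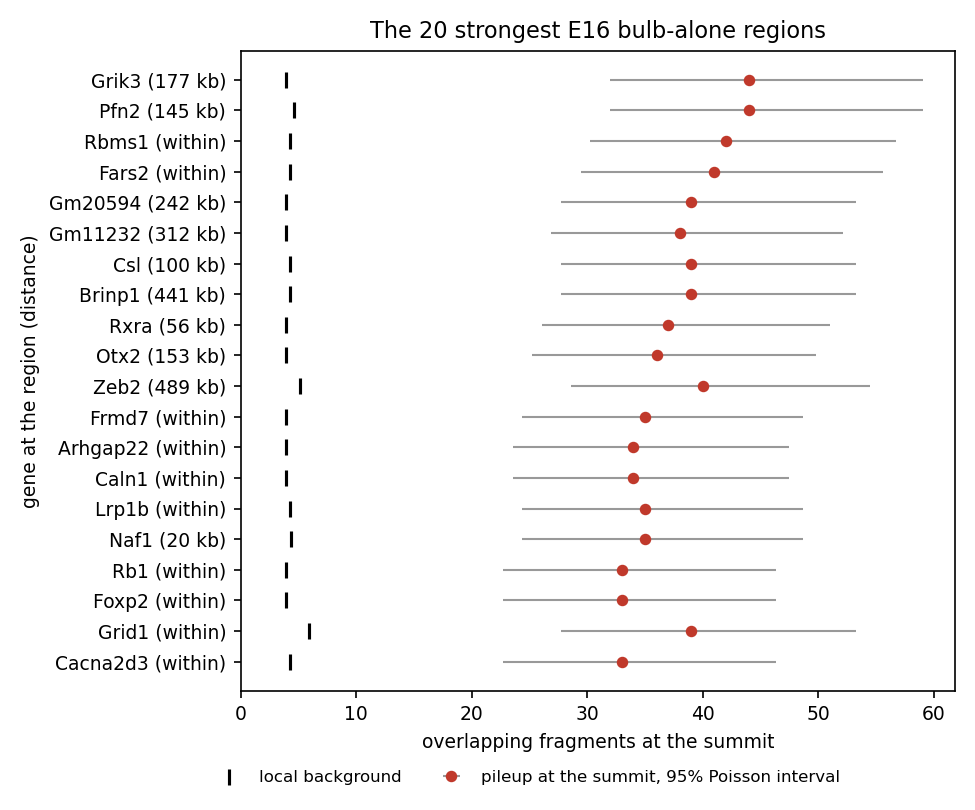
Pileup at the summit (points, horizontal axis in overlapping fragments) with exact 95% Poisson intervals and local background (black marks) for the 20 strongest bulb-alone regions, in order of −log10 q from the top. The label gives the gene at the region and its distance; pileups run from 33 to 44 with overlapping intervals.

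Bulb-alone regions stood at protein-coding gene boundaries more often than the other E16 bulb regions. A start or end of such a gene was within 1 kb of 28 of 305 summits (9.18%, 6.19 to 13.0), against 62 of 1360 (4.56%, 3.51 to 5.81). The share was 3.25% (1.99 to 4.97) for E16 bulb regions joined with the basal ganglia alone, and 0 of 73 for those joined with the P3 bulb alone, which allows a share of up to 4.11%. Regions listed in 1 other library alone had 14.9% (8.56 to 23.3) in the P3 bulb, 8.63% in the E16 basal ganglia, 14.3% in the E16 cortex and 11.96% in the P3 cortex. Regions of 1 library are not replicates, so the intervals cover counting error and no test was made. With noncoding genes included, 13.1% of bulb-alone summits were at a boundary (9.54 to 17.4), against 10.4% (8.87 to 12.2), and these intervals overlap.

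A higher share with intervals that barely overlap was seen in the weakest part of the list. In the weakest of the 5 parts, 18 of 104 bulb-alone regions were at a protein-coding boundary (17.3%, 10.6 to 25.97), against 16 of 229 other regions (6.99%, 4.05 to 11.1). The other parts showed no such excess beyond counting error. In the part above it the counts were 5 of 88 (5.68%), against 16 of 245 (6.53%), in the middle part 3 of 66 (4.55%), against 13 of 267 (4.87%), in the second strongest 2 of 36 (5.56%), against 8 of 297 (2.69%), and in the strongest 0 of 11, against 9 of 322 (2.80%). The boundary regions also had higher local background. The 28 had a median background of 5.74 expected fragments and a median fold enrichment of 3.81, while the 117 bulb-alone regions elsewhere in protein-coding genes had 4.08 and 4.76, and the 160 outside such genes 3.89 and 4.89. Their median pileups were close, at 26, 25 and 24. Higher background at boundaries was seen in the other E16 bulb regions too (5.95 at a boundary). Its part in the boundary share was not tested.

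**Figure D4:**
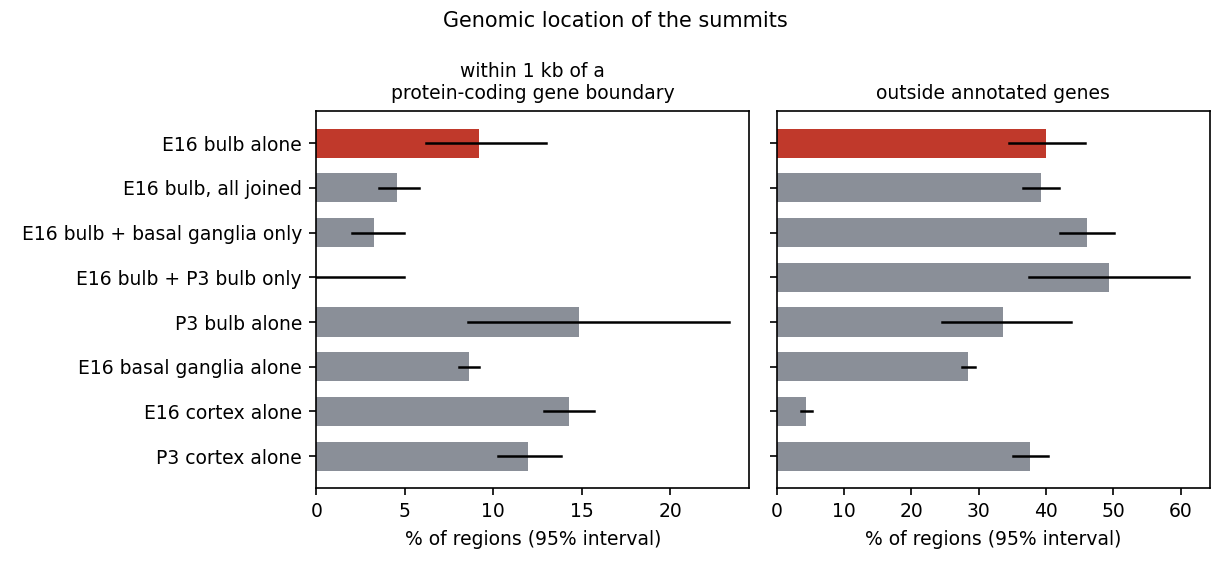
Share of summits (horizontal axes, percent, with exact 95% intervals as black lines) within 1 kb of a protein-coding gene boundary (left) and outside annotated genes (right). The bulb-alone regions (red) have 9.18% at boundaries and 40.0% outside genes, against 4.56% and 39.3% for E16 bulb regions joined with another list.

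The 10 strongest regions at these boundaries included those of Mrps31, a mitochondrial ribosomal protein gene (fold enrichment 6.29, summit 9 bases past the start), the heme transporter gene Slc48a1 (5.93) and Dnajb11, which encodes a chaperone of the endoplasmic reticulum (4.64). The tubulin-folding cofactor gene Tbcb (4.59) shares its region with Polr2i, an RNA polymerase II subunit gene, 161 bases before whose start the summit lay. Others were Klhdc4 (4.83), the annexin gene Anxa13 (4.92), the corepressor gene Tbl1xr1 (3.81), Crebrf (3.85) and Hmgcs1, an enzyme gene of cholesterol synthesis (3.81). Further promoter windows with the summit belonged to Kbtbd3 and Aasdhppt, which face each other over 1 region (4.10), and to the noncoding genes A730036I17Rik (5.53), Gm41022 (4.43) and Gm15831 (4.70). Of the listed ubiquitous genes, 0 of 15 had a bulb-alone summit within the gene or 10 kb of it. Over all protein-coding genes the share was 0.823%, so a list of 15 can hold 0 without differing from the rest.

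Away from boundaries, the location of bulb-alone regions resembled that of the rest of the list within counting error. Outside all annotated genes lay 122 of 305 summits (40.0%, 34.5 to 45.7), against 534 of 1360 (39.3%, 36.7 to 41.9). In genes, but over 1 kb from a boundary, lay 46.9% (41.2 to 52.7), against 50.3% (47.6 to 53.0). Genes over 500 kb held 10.2% (7.01 to 14.1), against 10.4% (8.80 to 12.1). By chromosome, the share of E16 bulb regions that were bulb-alone ranged between 11.1% on chromosome 12 (5.68 to 19.01) and 31.4% on chromosome 15 (16.9 to 49.3). Chromosome 6 had 28.7% (19.5 to 39.4), above the 18.3% of the whole list, which the interval of every other chromosome held. These intervals were not corrected for the number of chromosomes. Neighbouring bulb-alone summits were a median of 4853 kb apart, and 11 of 285 neighbouring pairs were within 100 kb. No bulb-alone region touched a small nuclear, small nucleolar, transfer or ribosomal RNA gene. None had its summit within 10 kb of any of 1428 olfactory receptor genes. In each case 0 of 305 allows a share of up to 0.984%. The same counts were not made for the other E16 bulb regions, so whether 0 differs from the rest of the list was not tested.

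The distance to the nearest region of another library is given as a description, since it depends on how many regions each list holds. The nearest region of any other list was a median of 54.4 kb away, within 10 kb for 48 of 305 (15.7%, 11.8 to 20.3) and within 100 kb for 205 (67.2%, 61.6 to 72.5). For 238 of the 305 it belonged to the E16 basal ganglia list, the longest of the 5 with 14732 regions. The median distance was 61.7 kb to a basal ganglia region, 342 kb to a P3 cortex region, 678 kb to an E16 cortex region and 1243 kb to a P3 bulb region. The order follows the length of the lists except for the cortex, where the P3 list is the shorter one (2116 regions, against 6307 at E16).

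**Figure D5:**
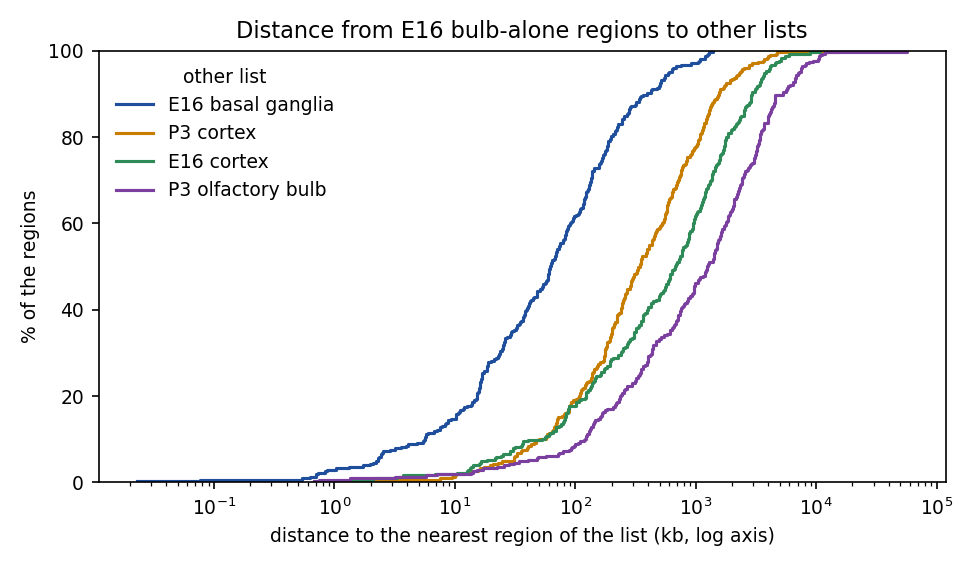
Cumulative share of the 305 bulb-alone regions (vertical axis, percent) with a region of each other list within the distance on the horizontal axis (kb, log axis). The median distance is 61.7 kb for the E16 basal ganglia, 342 kb for the P3 cortex, 678 kb for the E16 cortex and 1243 kb for the P3 bulb.

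At the edge of the rule, bulb-alone regions lay 77 bp (0.234 kb outside Mycn, a proliferation gene of neural progenitors, fold enrichment 3.76) and 538 bp (within Ttc28, 3.59) from a basal ganglia region. The 3 joined regions with the smallest overlap met a basal ganglia region by 3 bp (within Prr14, 3.78), 26 bp (within Slx4ip, 7.36) and 33 bp (182 kb from Nmbr, 5.32). These values overlap.

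Protein-coding genes that held a bulb-alone summit, in the body or within 10 kb of it, numbered 178 of 21627, which is 0.823%. They were long, with a median of 111 kb, against 17.3 kb over all protein-coding genes. Of the 178, 116 also held a region of another kind (65.2%, with 31.8% over all protein-coding genes), most often one of the basal ganglia list (104), and 62 held none. The 62 were shorter, with a median of 42.5 kb. Gene length was not matched in this comparison.

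A pair of bulb-alone summits was in each of 8 of the 21627 protein-coding genes. They were 10.9 kb apart in Ttll11, 13.7 kb in the cell adhesion gene Alcam, 15.8 kb in Tmtc2, 39.9 kb in Tbl1xr1, 47.5 kb in the receptor phosphatase gene Ptprd, 87.1 kb in the potassium channel gene Kcnh5, 419 kb in Macrod2 and 1577 kb in Lrp1b. The 8 genes were long, at 140 kb (Tbl1xr1) to 2271 kb (Ptprd), against a median of 17.3 kb over all protein-coding genes. Gene length was not matched, and no like count is given for the other E16 bulb regions. Fold enrichments in the 8 genes ran between 3.72 and 6.86. In Ttll11 both regions had the same value (5.32), and in Kcnh5 they had 4.70 and 4.30. Alcam, which encodes an adhesion protein of growing axons, had 5.52 and 3.72. Tbl1xr1 held no region of any other list within 10 kb of its body, whereas Macrod2 held 17 basal ganglia regions. The widest bulb-alone region was one of the Tmtc2 pair, at 720 bp, and others among the 5 widest lay within Tmem29 (688 bp) and Ncam2 (642 bp) and 20.8 kb from Scamp1 (601 bp).

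Of the listed genes, those with a bulb-alone summit were Foxp2, Abat, Plxna4, Nrxn3, Cntnap2 and Fgf10. Over 18 lists with 241 genes, these 6 had a bulb-alone summit (2.49%), with 0.823% over all protein-coding genes, and 48 had any E16 bulb summit, with 3.63% over all. The median length of the listed genes was 25.7 kb and of the 6 it was 492 kb. Of 38 GABAergic lineage transcription factors only Foxp2 was among the 6, although 12 had an E16 bulb region of either kind. Of 7 genes of GABA synthesis and transport only Abat was among them, which encodes the enzyme that breaks down GABA. Its region had a summit 0.04 kb outside the gene, with fold enrichment of 4.0 and a pileup of 20 over 4.25. Abat also held 2 E16 basal ganglia regions, 1 P3 bulb region and 1 other E16 bulb region. The share in either list rests on 1 gene.

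Olfactory bulb interneuron genes (16), projection neuron genes (11), Notch and neurogenesis genes (15), cortical glutamatergic genes (16) and survival genes (10) each had 0 with a bulb-alone summit, and at 0.823% over all protein-coding genes lists of this size can hold 0 without differing from the rest. The migration and guidance list had 1 of 27, the semaphorin receptor gene Plxna4 (4.59). Synapse genes had 2 of 17, the presynaptic organiser gene Nrxn3 (4.17) and Cntnap2 (4.70), a neurexin family gene of 2241 kb. Nrxn3 also held 18 E16 basal ganglia regions, Cntnap2 held 8 and Plxna4 held 5. The signalling list had 1 of 20, the growth factor gene Fgf10 (5.11), whose region lay 689 kb from the nearest region of another list. Marker lists of other cell types, namely oligodendrocytes (11), astrocytes (11), microglia (10), endothelial and mural cells (10), olfactory ensheathing cells (10) and olfactory sensory neurons (10), all had 0.

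The Dlx genes carried E16 bulb regions but no bulb-alone ones. Of the 6 Dlx family genes, 4 had an E16 bulb summit within 10 kb, with fold enrichment of up to 15.2 at Dlx5 and Dlx6 and 10.6 at Dlx1 and Dlx2. The nearest bulb-alone summit was 2738 kb from Dlx5, 2752 kb from Dlx6, 10329 kb from Dlx1 and 10344 kb from Dlx2. At Cxcl14, the chemokine gene the series proposes as a direct target, the E16 bulb list had 0 regions within 10 kb, and the nearest bulb-alone summit was 7673 kb away.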

How the data were processed

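Chromatin was sheared to 300 to 1000 bp and sequenced as single-end reads of 50 nucleotides, per the labels' protocols. Per the submitters' processing notes, Trimmomatic, Bowtie2, SAMtools and MACS2 were used with the build mm10, no versions being stated. Of thresholds and the control behind each call, nothing is given in the sources used here. Authors' lists were deposited as 1 narrowPeak file per immunoprecipitated library, with fold enrichment at the summit as a ratio, −log10 p and −log10 q. The deposited score column, a whole-number form of −log10 q, was not used. Peak names of every list but that of the P3 cortex carry the word dedup, and whether duplicate reads were removed for the P3 cortex is not stated.

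Regions off chromosomes 1 to 19 and X were left out (1 in the E16 bulb). Lists were merged at 1 bp with Python 3.11.15 and pandas 2.3.3. Pileup and background were solved to within 0.001 on the −log10 p scale, with SciPy 1.17.1, a step tested on simulated data. Shares carry exact Clopper-Pearson 95% intervals. A count of 0 allows up to 3 counts of the total. Genes (49550 on these chromosomes, 21627 protein-coding) came from RefSeq, GRCm38.p6, which is the build of the files. The table gives no exons, so gene body stands for exon and intron. Promoter windows were matched by coordinates and cover 27025 symbols. A match to a motif describes letters only.

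The gene at a region is the shortest protein-coding gene around the summit, else the nearest. Named were the genes at the 20 strongest members by −log10 q, at the 10 strongest within 1 kb of a protein-coding boundary and at the 5 widest, listed genes and genes with a pair of summits, the cases at the edge of the rule, the Dlx genes and Cxcl14, and up to 10 genes with the summit in a promoter window. Some items that the rule names are not reported here. Members and gene lists were chosen with earlier results of these data known. Alternatives changed the joining distance, the overlap, the −log10 q, the lists compared, the width limit, the gene set and the gene extension.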

Additional observations from a re-analysis of the deposited data

How the results depend on the processing

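No paired analysis was possible because each group has 1 library, and for the same reason no replicate could be left out. The number of bulb-alone regions stayed between 237 and 386 under 11 of 12 alternatives, and was 927 without the E16 basal ganglia list. The median fold enrichment was 4.70 to 4.91, except 4.95 with −log10 q of at least 5 and 6.30 with equal numbers of the strongest regions of each list, which drop weak regions by construction. The share within 1 kb of any gene boundary was 8.23% with −log10 q of at least 5 and 5.49% with equal numbers, 9.18% with protein-coding genes alone and 27.5% within 5 kb. At 5 kb from protein-coding genes it was 15.1% (11.3 to 19.6), against 10.8% (9.21 to 12.6) for other E16 bulb regions, so that these intervals overlap. The share outside genes was 49.4% with equal numbers and 52.5% with protein-coding genes alone. TAATTA was in 3.57% of the other bulb windows once limited to regions no stronger than the bulb-alone ones, a setting added after seeing the data. Genes with a bulb-alone summit numbered 331 with bodies extended by 50 kb. With 17 to 44 fragments at a summit, the ranking of single regions is limited by counting error.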

Other observations

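The genes in this part were picked after their values were seen, so no count over them is a result. Bulb-alone regions lay within several genes for adhesion molecules of neurons: Ncam2, known from axons of olfactory sensory neurons (fold enrichment 6.14), the teneurin gene Tenm2 (5.91), the cadherin gene Cdh12 (5.73), the neurotrimin gene Ntm (5.52), the contactin gene Cntn5 (4.31) and Nrcam (3.70). The postsynaptic scaffold gene Dlg2 and the matrix gene Tnr had equal values (6.34 each). These pileups were 29 in Ncam2, 30 in Tenm2, Dlg2 and Tnr, and 31 in Nrcam. The local background was 7.65 in Nrcam, against 3.89 in Ncam2. All the genes named here were long, at 276 kb (Nrcam) to 1973 kb (Dlg2), against a median of 17.3 kb over all protein-coding genes. Gene length was not matched. Each gene also held E16 basal ganglia regions in its body or within 10 kb, from 1 in Ncam2 and in Cdh12 to 14 in Tenm2. Of the listed olfactory sensory neuron genes, 0 of 10 had a bulb-alone summit.

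Metabolic genes appeared among the promoter regions of low fold and high background. Mmab and Mvk, which encodes mevalonate kinase, face each other over 1 region (2.99, pileup 35 over 11.05), and Mrpl39, a mitochondrial ribosomal protein gene, had nearly the same values (2.91, 34 over 11.05). The bulb-alone region lowest in fold enrichment was near Dpy19l4 (2.47, pileup 33 over 12.7).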
